A study of Gallus gallus with 30 samples.

Results

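NKX2-5, GATA4, GATA5, GATA6, HAND1, HAND2 and MEF2C are 7 transcription factors of the heart gene programme, and their signals were followed through 15 stages of the whole chicken embryo. The genes were chosen by name, and a member was any probe set that the platform annotation assigns to 1 of these symbols. All 7 genes were on the array, with 10 probe sets in all, out of 13008 genes with a probe set of 1 symbol. Each gene was represented by its probe set with the highest mean log2 signal. The remaining 3 probe sets, 1 of GATA5 and 2 of MEF2C, served as a second reading.

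The embryos were wild type Gallus gallus of the Nera line, taken whole without yolk and amnion, and the labels give mixed sex. The incubation temperature given for the samples was the same at every stage. RNA was pooled over several embryos, and each stage had 2 pools that the labels call biological replicates, and each pool was hybridised to its own Affymetrix Chicken Genome Array (30 arrays). The stages, in the Hamburger and Hamilton series, began with HH1, HH2, HH4, HH6, HH8 and HH9, went on with HH11, HH14, HH16, HH19 and HH24, and ended with HH27, HH32, HH34 and HH38. HH1 is the blastoderm of the laid egg, HH4 has a full-length primitive streak, HH16 has a looped heart and HH38 is a late embryo with formed organs. With 2 arrays at each stage, their number limits the precision.

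As background, the vertebrate heart forms from lateral mesoderm that is specified during gastrulation, and a small set of transcription factors that bind next to each other and switch on each other's genes drives its muscle programme. NKX2-5 is a homeodomain protein and an early marker of heart precursors. GATA4, GATA5 and GATA6 are zinc finger proteins that act in heart and in endoderm. HAND1 and HAND2 are basic helix-loop-helix proteins of lateral mesoderm and heart chambers, and HAND2 also acts in limb bud and sympathetic neurons. MEF2C is a MADS box protein that activates contractile genes in heart and skeletal muscle.

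The values are MAS5 signals, linear intensities per probe set scaled so that the trimmed mean of each array is 500. Signals of different probe sets are not on a common scale, so single genes are not set against each other by signal. The summed signals of marker lists add such probe sets and weigh the brightest of them most. Background was read on each array from the 689 probe sets designed for other organisms, as their 95th percentile, and lay between 25.4 and 47.2. In RNA of whole embryos, fewer cells of a type and less RNA per cell cannot be told apart. The arrays of a stage correlated over log2 signals with r between 0.940 and 0.958, and 23 of 30 arrays were closest to the other array of their own stage. The HH38 arrays went against the label of mixed sex, because the W-linked genes HINTW and HNRNPKL lay below background there (HINTW 3.6 and 30.3, HNRNPKL 22.9 and 26.0), while the HH34 arrays had 18417.0 and 16880.1 for HINTW. The 3' to 5' ratio of the actin control was also higher at HH38, at 2.48 and 2.99, against 1.54 to 2.01 on the other arrays. For this reason, HH34 is given beside HH38 in the late comparison.

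Differences between stages were tested with limma (moderated tests, Benjamini-Hochberg adjustment over all 29600 probe sets kept), and a call required both an adjusted p below 0.05 and a change of 2-fold or more. All 7 genes changed over the 15 stages by the F test, as did 69% of all probe sets, with adjusted p between 2.74e-15 for GATA6 and 0.0252 for GATA4. The number was 6 with no variance trend, with array weights, and in the fits without HH1 replicate 1, HH1 replicate 2, HH2 replicate 1, HH2 replicate 2 or HH27 replicate 1. Between HH1 and HH16 the signals of NKX2-5, GATA5, HAND1, HAND2 and MEF2C rose, and those of GATA4 and GATA6 fell. That is 5 of 7 called higher at HH16, where 15% of all probe sets were, and 2 of 7 called lower, where 9.79% were. Between HH16 and HH38 NKX2-5, GATA5, HAND1 and HAND2 fell and MEF2C rose, which is 4 of 7 lower, against 7.88% of all probe sets, and 1 of 7 higher, against 12.2%. With HH34 in place of HH38, the same genes were called in the same directions, 4 lower against 4.74% of all probe sets and 1 higher against 9.74%. Of all probe sets called between HH16 and HH38, 60.8% were higher at HH38, a split that depends on the scaling and was 48.1% with 75th percentile scaling and 46.4% with quantile normalization.

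**Figure D1:**
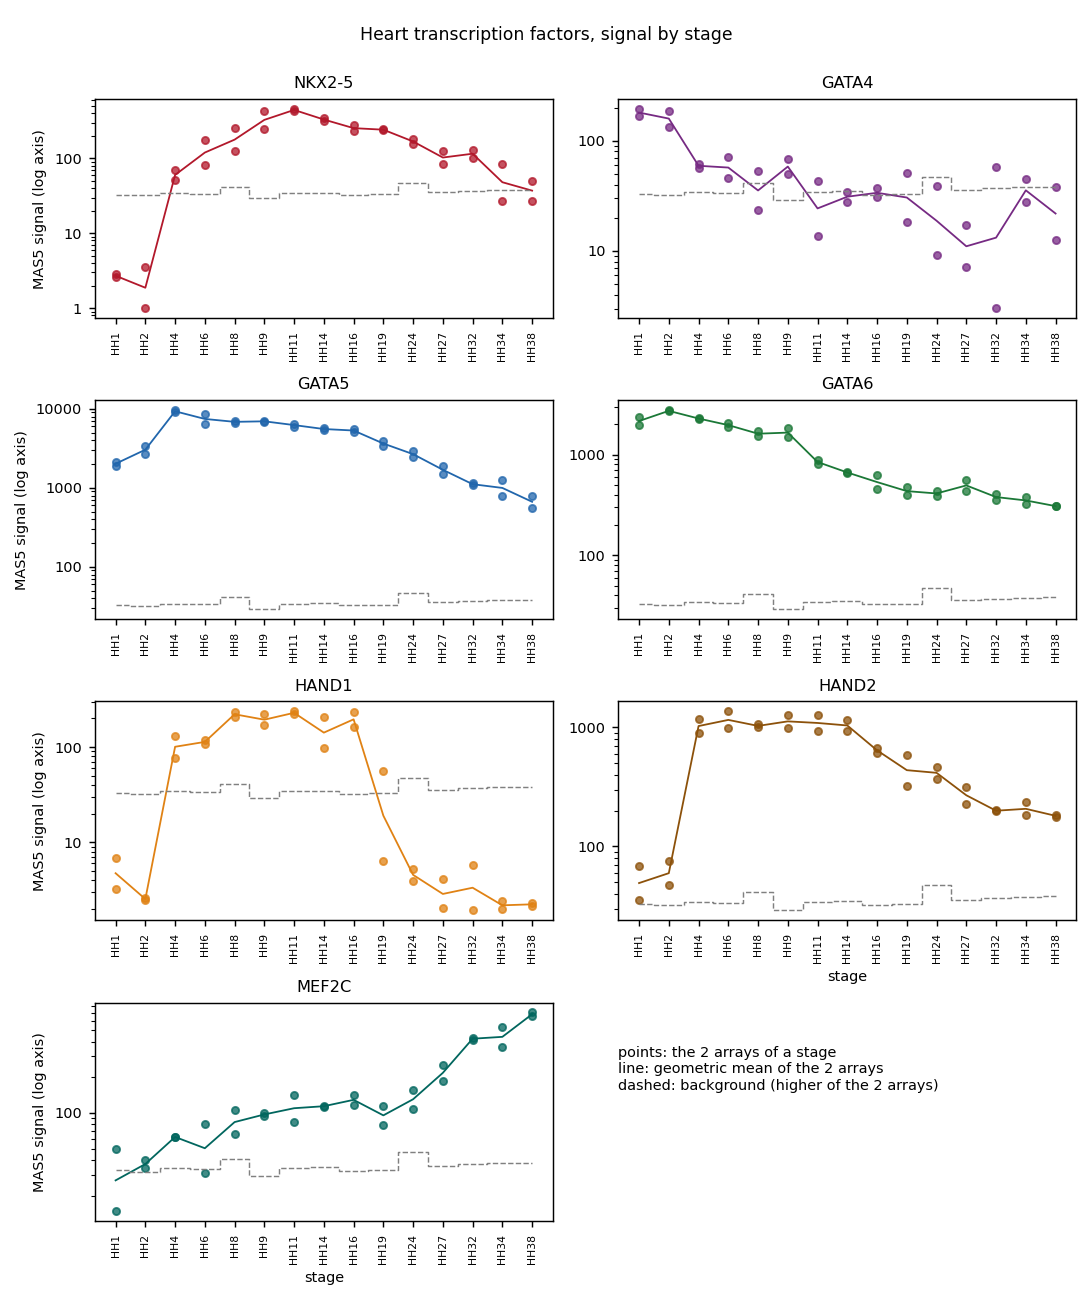
MAS5 signal (log axis) of the 7 heart transcription factors at the 15 stages, with the 2 arrays of each stage as points, their geometric mean as a line and the background, the higher value of the 2 arrays, dashed. NKX2-5, HAND1 and HAND2 leave a low level between HH2 and HH4, GATA6 declines and MEF2C is highest at HH38.

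NKX2-5, the homeodomain factor of heart precursors, had 1 probe set. The arrays read 2.83 and 2.58 at HH1, 1.00 and 3.5 at HH2, 52.0 and 69.4 at HH4, 80.7 and 177 at HH6, and 124 and 255 at HH8. They read 249.5 and 428 at HH9, 454 and 433 at HH11, 348 and 313 at HH14, 276 and 233 at HH16, and 244 and 239 at HH19. From there on the values were 183 and 154 at HH24, 127 and 82.8 at HH27, 102 and 129.9 at HH32, 27.2 and 84.7 at HH34, and 27.2 and 50.5 at HH38. The signal was below background on all arrays of HH1 and HH2, above it on all arrays from HH4 to HH32, and above it on 1 of 2 arrays at HH34 and at HH38. HH11 was the stage with the highest mean, and both of its arrays were above both arrays of every other stage.

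The step from HH2 to HH4 was a rise of 5.01 ± 0.55 on the log2 scale (SE, n = 2 arrays per stage, limma adjusted p = 3.95e-07), and since both HH2 arrays were below background, it is stated as at least 2.11-fold. With signals below background set to the background this step was no longer called (log2 change 1.08, limma adjusted p = 0.0571). NKX2-5 rose further after HH4, and HH11 was 7.38-fold above HH4 (log2 change 2.88 ± 0.55, limma adjusted p = 0.000428). No single step between HH4 and HH11 was called. At HH16 the gene was at least 8.22-fold above HH1 (log2 change 6.55 ± 0.55, limma adjusted p = 1.08e-09). At HH27 it had fallen below HH11 by 2.11 on the log2 scale (4.32-fold, limma adjusted p = 0.00515). At HH38 it was at least 5.85-fold below HH16 (log2 change -2.77 ± 0.55, limma adjusted p = 0.000257). The corresponding fall at HH34 was at least 4.48-fold (log2 change -2.40, limma adjusted p = 0.00141). Against HH1, NKX2-5 was called higher at 13 of the 14 later stages, all from HH4 on. Over all probe sets and later stages, 15.6% were called higher.

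HAND1, which is known from mouse for a role in the left ventricle and in extra-embryonic mesoderm, read 6.92 and 3.25 at HH1, 2.47 and 2.61 at HH2, 76.7 and 132 at HH4, 119.8 and 107 at HH6, and 234 and 208 at HH8. It read 220.4 and 170.2 at HH9, 237 and 221 at HH11, 97.1 and 207 at HH14, 233 and 164 at HH16, and 6.43 and 56.4 at HH19. At HH24 the arrays had 5.25 and 3.95, and at HH27, HH32, HH34 and HH38 all values lay between 1.94 and 5.76. HAND1 was thus above background on both arrays of each stage from HH4 to HH16, on 1 array at HH19, and on none at HH1, HH2 or from HH24 on.

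The rise at HH4 over HH2 was at least 3.54-fold (log2 change 5.31 ± 0.81, SE, n = 2 arrays per stage, limma adjusted p = 3.91e-05). From HH4 to HH16 no step was called. HAND1 fell at HH19, by at least 4.53-fold relative to HH16 (log2 change -3.36 ± 0.81, limma adjusted p = 0.0294). It was the only call of any of the 7 genes at a step after HH4, and at this step 0.426% of all probe sets were called lower and 0.446% higher. The fall rests on few arrays. Without HH16 replicate 1 the limma adjusted p was 0.215, without HH16 replicate 2 it was 0.121, and without HH19 replicate 1 the log2 change was -1.79 with an adjusted p of 0.433. By HH38 the signal was at least 5.19-fold below HH16 (log2 change -6.45 ± 0.81, limma adjusted p = 8.31e-07) and by HH34 at least 5.93-fold below it (limma adjusted p = 1.13e-06). HAND1 was called higher than HH1 at 8 stages, HH4 to HH19, against 15.6% over all probe sets and later stages. At HH19 the arrays overlapped with those of HH1. The HH19 geometric mean of 19.0 was below background, so no fold is given there.

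HAND2, the paralog that acts in the right ventricle in mouse, had 1 probe set and was above background on all 30 arrays. It read 68.5 and 35.5 at HH1, 47.0 and 75.7 at HH2, 886 and 1179 at HH4, 976 and 1357 at HH6, and 997 and 1054 at HH8. It read 982 and 1274 at HH9, 1277 and 922 at HH11, 931 and 1147 at HH14, 612 and 668 at HH16, and 322 and 589.5 at HH19. Later values were 464 and 369.8 at HH24, 227 and 318 at HH27, 197 and 201 at HH32, 182 and 235 at HH34, and 183 and 178 at HH38. HAND2 therefore formed a plateau from HH4 to HH14, in which the arrays of neighbouring stages overlapped, and lay lower from HH16 on, with all later arrays above those of HH1 and HH2.

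HAND2 was 17.1-fold higher at HH4 than at HH2 (log2 change 4.10 ± 0.30, SE, n = 2 arrays per stage, limma adjusted p = 6.86e-10). At HH16 it was 13.0-fold above HH1 (log2 change 3.70 ± 0.30, limma adjusted p = 6.83e-10). At HH38 it was 3.54-fold below HH16 (log2 change -1.82 ± 0.30, limma adjusted p = 3.17e-05), and at HH34 3.09-fold below HH16 (limma adjusted p = 0.00016). No step after HH4 was called. HAND2 was called higher than HH1 at 13 of 14 later stages, against 15.6% over all probe sets and later stages. Of all 105 pairs of stages 72 were called for HAND2, the highest number among the 7 genes, against 14.8% over all probe sets and pairs.

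GATA5, a GATA factor of heart and gut endoderm, read 1893 and 2155 at HH1, 2710.0 and 3416 at HH2, 9598 and 9057 at HH4, 8621 and 6446 at HH6, and 6663 and 7042 at HH8. It read 6889 and 7026 at HH9, 6503 and 5975 at HH11, 5442 and 5674 at HH14, 5054 and 5599 at HH16, and 3366 and 3939 at HH19. It read 2918 and 2446 at HH24, 1888 and 1519 at HH27, 1137 and 1090.0 at HH32, 783 and 1273 at HH34, and 799 and 556 at HH38. Both HH4 arrays were above all others, and the HH32 to HH38 arrays were all below those of HH1.

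GATA5 rose 3.06-fold at HH4 over HH2 (log2 change 1.62 ± 0.19, SE, n = 2 arrays per stage, limma adjusted p = 7.33e-07) and was 2.63-fold higher at HH16 than at HH1 (log2 change 1.40 ± 0.19, limma adjusted p = 1.32e-06). No later step was called, but HH38 lay 7.98-fold below HH16 (log2 change -3.0 ± 0.19, limma adjusted p = 1.22e-11), HH34 5.33-fold below HH16 (limma adjusted p = 6.96e-10) and HH38 14.0-fold below HH4 (limma adjusted p = 9.8e-14). Against HH1 the gene was called higher at the 7 stages from HH4 to HH16 and lower at HH34 and HH38. Over all probe sets and later stages, 15.6% were called higher and 10.4% lower. The second probe set of GATA5 gave log2 changes of 1.77 at HH4 over HH2, 1.13 at HH16 over HH1 and -2.97 at HH38 over HH16, all called, and its 15 stage means correlated with those of the first with r = 0.99.

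GATA6, which in mouse is required for extra-embryonic endoderm and also acts in heart, read 1970.0 and 2356 at HH1, 2755 and 2684 at HH2, 2287 and 2277 at HH4, 2066 and 1863 at HH6, and 1710.0 and 1520.0 at HH8. It read 1843 and 1483 at HH9, 889.8 and 801 at HH11, 650.3 and 678 at HH14, 459 and 620.3 at HH16, and 394 and 478 at HH19. The last 5 stages had 389 and 434 at HH24, 564 and 433 at HH27, 407 and 352 at HH32, 324 and 379 at HH34, and 306 and 309.5 at HH38. The stages from HH1 to HH9 did not overlap with those from HH11 on.

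GATA6 was 4.04-fold lower at HH16 than at HH1 (log2 change -2.01 ± 0.15, SE, n = 2 arrays per stage, limma adjusted p = 2.35e-10). The step from HH9 to HH11 passed the adjusted p and just missed the 2-fold limit (log2 change -0.97 ± 0.15, limma adjusted p = 0.000122). At HH38 it was 1.73-fold below HH16 (log2 change -0.79 ± 0.15, limma adjusted p = 0.000206), which is not a call. With quantile normalization (-1.02) or without HH16 replicate 1 (-1.01) that difference passed the 2-fold limit. GATA6 was called lower than HH1 at the 9 stages from HH11 on and higher at none. Over all probe sets and later stages, 10.4% were called lower and 15.6% higher.

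GATA4, a partner of NKX2-5 on cardiac promoters, had 1 probe set, which was above background on 18 of 30 arrays. Whether this probe set reads the main GATA4 transcript was not checked, so its low signals do not show that the gene is silent. It read 194 and 168 at HH1, 188 and 134 at HH2, 62.0 and 56.9 at HH4, 46.0 and 71.1 at HH6, and 52.9 and 23.7 at HH8. It read 68.3 and 49.9 at HH9, 43.5 and 13.6 at HH11, 28.0 and 34.5 at HH14, 30.6 and 37.2 at HH16, and 18.4 and 50.9 at HH19. It read 38.8 and 9.12 at HH24, 7.09 and 17.1 at HH27, 3.03 and 57.6 at HH32, 45.2 and 27.9 at HH34, and 38.3 and 12.5 at HH38. The 4 arrays of HH1 and HH2 were above all others. At HH9 both arrays were above background, and at each other stage from HH8 on at least 1 array was below it.

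GATA4 was at least 5.20-fold lower at HH16 than at HH1 (log2 change -2.42 ± 0.97, SE, n = 2 arrays per stage, limma adjusted p = 0.0487). This call was close to the limit. It was lost in 19 of 30 fits that left out 1 array, among them those without HH1 replicate 1 (limma adjusted p = 0.158) and without HH16 replicate 1 (limma adjusted p = 0.161), and over all alternatives the adjusted p ran between 6.67e-07 and 0.161. The difference of HH38 from HH16 was -0.62 on the log2 scale and not called (limma adjusted p = 0.669). No step was called for GATA4. Against HH1 it was called lower at the 9 stages from HH11 on, against 10.4% over all probe sets and later stages.

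The other GATA factors on a list of 3 were measured for 2. GATA3, which acts in sympathetic neurons, ear and lymphocytes, was at least 12.4-fold higher at HH4 than at HH2 (limma adjusted p = 9.43e-11) and 10.8-fold higher at HH38 than at HH16 (geometric means 2877 at HH38 and 266 at HH16, limma adjusted p = 6.03e-10). GATA3 was also 3.17-fold higher at HH16 than at HH1 (limma adjusted p = 2.16e-05). Of all probe sets, 6.24% were called higher at HH4 over HH2, 15% at HH16 over HH1 and 12.2% at HH38 over HH16. GATA2 was not called in either main comparison. It was above background on 1 HH1 array and on no HH38 array, so a change could be missed. At HH34 GATA3 had 573 and 652.

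MEF2C, the MADS box factor of muscle, read 49.3 and 14.8 at HH1, 40 and 34.4 at HH2, 62.2 and 63.2 at HH4, 31.4 and 80.9 at HH6, and 66.2 and 106 at HH8. It read 94.8 and 99.6 at HH9, 143 and 84.0 at HH11, 115 and 113 at HH14, 143 and 116 at HH16, and 116 and 78.8 at HH19. It read 157 and 108 at HH24, 188 and 253 at HH27, 415 and 432 at HH32, 533 and 362 at HH34, and 706 and 659 at HH38. All arrays from HH27 on were above all earlier arrays, and both HH38 arrays were above every other.

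MEF2C was at least 3.21-fold higher at HH16 than at HH1 (log2 change 2.26 ± 0.45, SE, n = 2 arrays per stage, limma adjusted p = 0.000241). It was 5.28-fold higher at HH38 than at HH16 (log2 change 2.40 ± 0.45, limma adjusted p = 0.000146) and 3.40-fold higher at HH34 than at HH16 (limma adjusted p = 0.00369). No step between neighbouring stages was called, but HH32 was 3.24-fold above HH24 (limma adjusted p = 0.0106). Of the 105 pairs of stages 56 were called, all with the later stage higher, against 14.8% over all probe sets and pairs. The second and the third probe set of MEF2C were below background on both HH1 arrays and were called at least 3.02-fold and at least 3.05-fold higher at HH16 than at HH1. At HH38 over HH16 their log2 changes were 2.07 and 1.81, both called. They correlated over the 15 stage means with the first at r = 0.91 and 0.85, and they differed from it at steps up to HH6, where their signals were below background. The second was called at HH8 over HH6, where it was at least 2.74-fold higher. At HH2 over HH1 the second was called higher (log2 change 2.03) and the third lower (-3.96), and at HH4 over HH2 the third was called higher (2.60), but all of these signals were below background, so no fold is given.

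**Figure D2:**
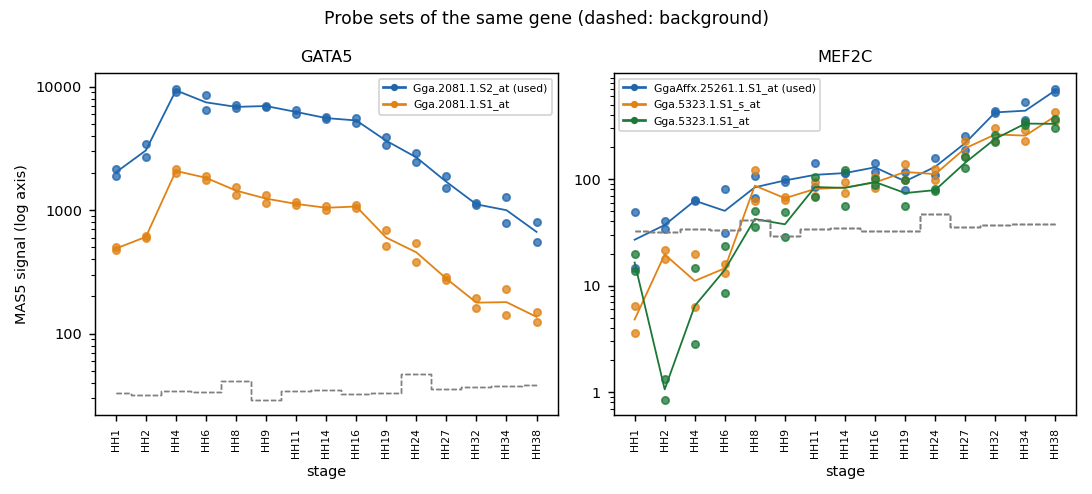
MAS5 signal (log axis) by stage of the probe sets of GATA5 (left) and MEF2C (right), with the 2 arrays as points, geometric means as lines and background dashed. The GATA5 probe sets run in parallel, while the 3 probe sets of MEF2C differ up to HH6 and rise together from HH24 on.

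Set side by side, 4 of 7 genes were called higher at HH4 than at HH2, where 6.24% of all probe sets were, and none of the remaining 3 was called lower, where 1.85% were. These were NKX2-5, GATA5, HAND1 and HAND2. The HH1 to HH2 step, with 10.8% of all probe sets called, held no call of the 7 genes. Neither did the HH9 to HH11 step, with 2.2% of all probe sets called higher and 2.56% lower. Over all 98 combinations of gene and step there were 5 calls, against 2.31% for all probe sets. Against HH1 there were 73 calls in 98 combinations of gene and later stage, against 26% for all probe sets (15.6% higher and 10.4% lower), and these 14 comparisons share the HH1 arrays. In the order of levels of each gene, 4 of 98 pairs of neighbours were called. They were HH38 over HH1 for NKX2-5, HH4 over HH19 and HH19 over HH1 for HAND1 (both HAND1 pairs with an HH19 mean below background), and HH38 over HH2 for HAND2, and in 68 of 98 pairs the arrays overlapped. Neighbouring stages in these orders, such as HH9 and HH14 for NKX2-5 or HH6 and HH9 for HAND2, were therefore mostly not separated beyond the spread of their arrays.

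**Figure D3:**
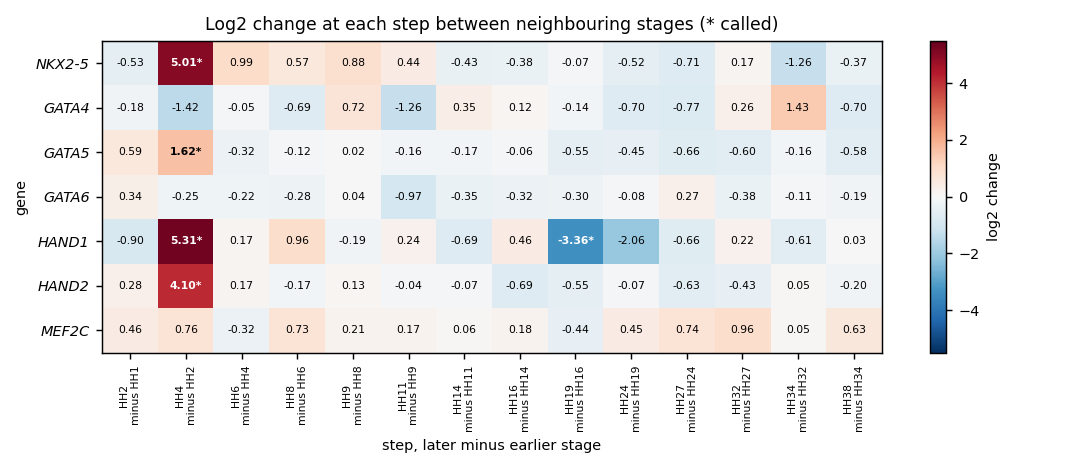
Log2 change of each heart transcription factor (rows) at each of the 14 steps between neighbouring stages (columns, later minus earlier), with calls marked by an asterisk. The calls are 4 rises at HH4 over HH2 and the fall of HAND1 at HH19 over HH16.

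As a share of each gene's own highest stage mean, the courses differed in the stage with the highest mean. GATA4 was highest at HH1, GATA6 at HH2, GATA5 at HH4, HAND2 at HH6, NKX2-5 and HAND1 at HH11 and MEF2C at HH38. For no gene was the highest stage called against the next highest. For GATA4, HAND1 and HAND2 the arrays of those stages also overlapped, so the order of peaks at nearby stages is not settled. At HH4, HAND2 was at 88.8% of its highest stage mean, HAND1 at 44.0% and NKX2-5 at 13.5%. At HH38, HAND2 was at 15.7%, GATA6 at 11.3%, NKX2-5 at 8.36%, GATA5 at 7.15% and HAND1 at 0.977%. NKX2-5 was below background on 1 of the HH38 arrays and HAND1 on both, so these 2 shares are not exact.

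Over the 15 stage means, which share the arrays and the scaling, GATA5 and HAND1 correlated with r = 0.89, NKX2-5 and HAND2 with 0.86, HAND1 and HAND2 with 0.85 and GATA4 and GATA6 with 0.80. MEF2C ran opposite to GATA6 (r = -0.86) and GATA4 (-0.77), and its correlation with NKX2-5 was 0.33. Among 12145 other genes, the courses most like that of NKX2-5 were those of HOXB7 (r = 0.97), HOXB3 (0.968) and TLX1 (0.964). For GATA5 they were HOXB1 (0.991), RANGAP1 (0.971) and PRTG (0.97), and for GATA6 EMB (0.984), ANO3 (0.984) and GPX4 (0.981). For HAND1 they were SLC39A8 (0.97), SMCO4 (0.947) and SCML2 (0.947), and for HAND2 CMTM8 (0.972), LMO2 (0.961) and GNAI3 (0.955). For MEF2C they were SDC2 (0.988), FAM114A1 (0.986) and GNG11 (0.98), and for GATA4 LAMTOR5 (0.943), PDCD2 (0.931) and ASXL2 (0.927). These are descriptions over 15 points with no test. They use log2 signals without a floor at background. HAND1, GATA4 and NKX2-5 were above background on 15, 18 and 24 of 30 arrays, so signals below it enter their r values.

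The partners and other regulators of the cardiac lineage formed a list of 27, of which 23 were measured. At HH16, 11 were called higher than at HH1 and 1 lower, against 15% and 9.79% of all probe sets. The median log2 change was 1.40 over the list and 0.04 over all probe sets. ISL1, the LIM homeodomain factor of the second heart field and of motor neurons, was 25.9-fold higher at HH16 than at HH1, and PRRX1, a factor of limb and craniofacial mesenchyme, 38.3-fold. IRX4, a ventricular factor, was 13.9-fold higher at HH16 than at HH1 and MYOCD, a coactivator of cardiac and smooth muscle genes, at least 7.14-fold. TBX5, the T-box partner of NKX2-5 and GATA4, was at least 3.88-fold higher at HH16 than at HH1. It was 2.21-fold lower at HH38 than at HH16 (limma adjusted p = 0.0318). At HH34 TBX5 was not lower than at HH16 (log2 change 0.05, not called). TEAD1 was the only fall, at 5.69-fold. TBX20 was called only at HH4 over HH2, at least 1.60-fold. Its probe set was below background on both arrays at HH2 and at every stage from HH11 to HH38, so it gives no reading there.

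At HH4 over HH2, 4 of the 7 factors rose, where 6.24% of all probe sets rose and 1.85% fell. Of the 23 partners, 6 rose there and none fell. They were ISL1 (8.45-fold), FOXC2 (at least 10.8-fold), PRRX1 (4.18-fold), MYOCD (2.80-fold), TBX5 (2.44-fold) and TBX20. At HH38 over HH16, 4 of 23 were called higher and 3 lower, shares close to the 12.2% and 7.88% of all probe sets, with a list median of -0.21 and 0.05 over all probe sets. HOPX, a homeodomain-only cofactor of heart muscle, was 20.5-fold higher, SMYD1, a methyltransferase of heart and skeletal muscle, 4.96-fold and MEF2D, a paralog of MEF2C, 3.45-fold. NFATC1, known for its role in heart valves, was at least 3.07-fold higher. TBX5, FOXC2 and NKX2-3 were lower. At HH34 over HH16 4 were also called higher and 2 lower, against 9.74% and 4.74% of all probe sets. These were in part other genes. HOPX was 5.83-fold, SMYD1 4.05-fold, IRX4 3.30-fold and MEF2D 2.08-fold higher at HH34, and NKX2-3 and NKX2-6 were lower. NFATC1 and FOXC2 were not called there (limma adjusted p = 0.19 and 0.0902).

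Of 14 BMP, FGF and WNT signals and antagonists of the heart field, 12 were measured. At HH16, 4 were called higher than at HH1 and 5 lower, against 15% and 9.79% of all probe sets. BMP10, a ligand of heart muscle, was at least 7.92-fold higher, BMP5 at least 13.0-fold, WNT11, a ligand that acts early in heart formation, 2.54-fold and BMP4 at least 2.52-fold. BMP2, BMP7 and the antagonists NOG, CHRD and CER1 were lower at HH16, by 2.03-fold for BMP7 and by at least 5.65-fold for CER1. At HH4 over HH2, the single rise was WNT11 (2.53-fold) and the single fall NOG (3.22-fold), where 6.24% of all probe sets rose and 1.85% fell.

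Of a list of 32 cardiac muscle genes, 25 were measured. Whether the 7 factors activate them was not tested. At HH16, 20 were called higher than at HH1 and none lower, against 15% and 9.79% of all probe sets. The median log2 change was 3.17, and 7 of the 25 were below background on both HH1 arrays. The myosin heavy chain gene MYH15 had 5112 and 4875 at HH16, against 36.1 and 31.1 at HH1, and was at least 145-fold higher. TNNT2 was 29.9-fold, MYL4 33.0-fold and MYL2 38.9-fold higher at HH16 than at HH1. At HH2 over HH1, 6 of 25 were called higher and 1 lower, against 5.43% and 5.4% of all probe sets. The geometric mean of MYL4 was 160 at HH1 and 840 at HH2, and that of TNNT2 86.2 and 212. At HH4 over HH2, 8 of 25 were called higher, against 6.24% of all probe sets, among them TNNT2 (3.94-fold) and MYL4 (2.62-fold). At HH11 over HH9, 11 of 25 were called higher and 1, MYH7, lower, against 2.2% and 2.56% of all probe sets. MYH15 had 4205 and 4596 at HH11, against 423 and 1233 at HH9, which is 6.09-fold, and MYBPC3 was 17.3-fold higher at HH11. At HH9, NKX2-5 stood at 73.7% of its highest stage mean, MYH15 at 11.8% of its own, MYL2 at 14.2%, ACTC1 at 8.14%, TNNT2 at 26.3% and MYL4 at 30.3%. These shares refer to different stages, HH11 for NKX2-5, HH14 for MYL4, HH32 for MYH15 and MYL2, and HH38 for ACTC1 and TNNT2. Between HH9 and HH11 the geometric mean of TNNT2 went from 2563.5 to 3191.5, and that of ACTC1 from 1934.6 to 11019. MYL4, an atrial and embryonic myosin light chain, was already at 35.9% at HH4, where NKX2-5 was at 13.5%.

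At HH38 over HH16, 11 of 25 cardiac muscle genes were called higher and 1, MYL4, lower (2.02-fold), while NKX2-5 was lower. The shares over all probe sets were 12.2% higher and 7.88% lower. TNNT2 was 3.78-fold higher at HH38 than at HH16 and ACTC1 2.13-fold, and both are also expressed in embryonic skeletal muscle. At HH34, 6 of 25 were called higher than at HH16 and 1, CSRP3, lower, against 9.74% and 4.74% of all probe sets. MYH15, MYL2 and NPPA were not called in either comparison. The part of skeletal muscle in the late rises of this list was not tested.

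**Figure D4:**
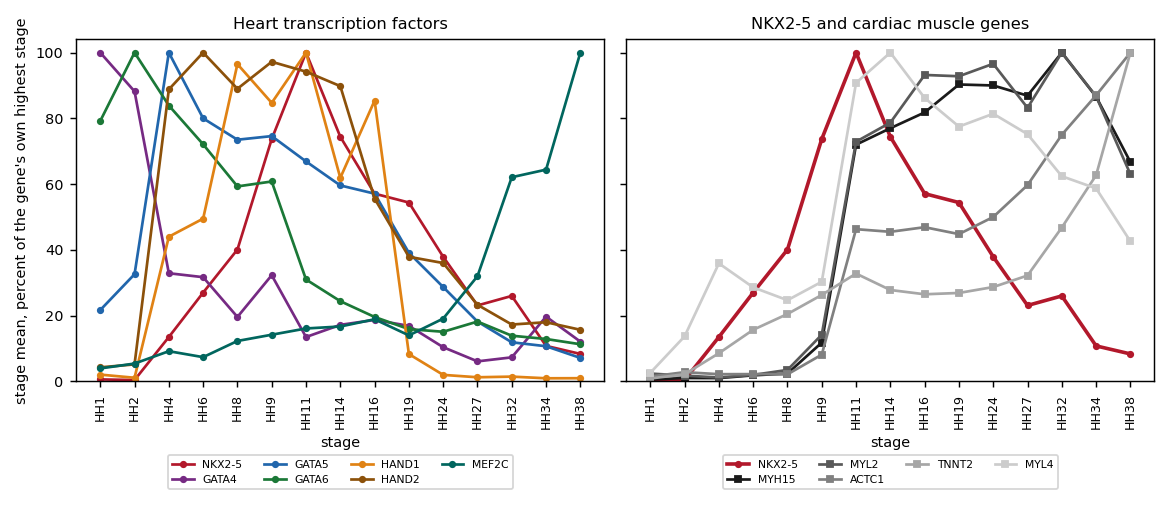
Stage means as percent of each gene's own highest stage, for the 7 heart transcription factors (left) and for NKX2-5 beside 5 cardiac muscle genes (right). NKX2-5 is at 40.1% at HH8 and 100% at HH11, while MYH15, MYL2 and ACTC1 are below 15% up to HH9. MYL4 is at 35.9% at HH4, and TNNT2 is at 26.3% at HH9. MYL4 is highest at HH14, MYH15 and MYL2 at HH32, and ACTC1 and TNNT2 at HH38, so the shares refer to different stages.

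Other tissues of the embryo use the same factors, and the summed signals of their markers also changed over the stages, in part with the members and in part against them. The 17 measured genes of an endoderm and yolk sac endoderm list summed to 34115 to 34916 at HH1, 86132 to 87344 at HH4, 108490 to 109260 at HH9, 62975 to 63522 at HH11, 14945 to 23076 at HH16 and 35586 to 40209 at HH38. Single bright genes made up much of these sums. SOX17 had a geometric mean of 16034 at HH1, and TTR had 9973 at HH16 and 19263 at HH38. Of the 17 genes, 8 rose and 3 fell at HH4 over HH2, against 6.24% and 1.85% of all probe sets. At HH11 over HH9, 0 rose and 5 fell, against 2.2% and 2.56%. At HH16 4 were higher and 8 lower than at HH1, against 15% and 9.79%. At HH38, 7 of 17 were called higher than at HH16 and none lower, against 12.2% and 7.88% of all probe sets, while GATA5 was lower. At HH34, 6 of 17 were called higher than at HH16 and 1, AFP, lower, against 9.74% and 4.74% of all probe sets. HNF4A, an endoderm factor, had 1681 and 1988 at HH4, against 604 and 640 at HH2, and 183 and 129 at HH11, against 1518 and 1215 at HH9. SOX17, an endoderm factor, was 21.0-fold lower at HH16 than at HH1, while TTR was 41.6-fold and APOB at least 20.4-fold higher. At HH4 AFP was below background on both arrays, and 16 of 17 were above it. The part of endoderm in the courses of GATA4, GATA5 and GATA6 was not tested.

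For the HAND genes, 6 of 15 limb bud markers, 5 of 10 sympathetic and branchial neural crest markers and none of 5 lateral plate and gut mesenchyme markers were called higher at HH4 over HH2. Of all probe sets, 6.24% were. Of the 5 lateral plate and gut mesenchyme markers, 3 (FOXF1, NKX2-3 and BARX1) were below background on both HH4 arrays, so a rise could be missed. At HH16, 4 of these 5 were called higher than at HH1 and none lower, against 15% and 9.79% of all probe sets. TBX5 and PRRX1 belong to both the limb bud list and the list of partners. The markers are not confined to the tissues their lists are named for. MSX1 of the limb bud list had a geometric mean of 2151 at HH1, the blastoderm. Signals of these lists at HH4, a primitive streak stage, therefore do not stand for those tissues. Limb bud markers summed to 6959.9 to 7008.9 at HH4 and 4700.0 to 4853.5 at HH2, and 12842 to 12903 at HH16 and 3277.8 to 4497.9 at HH1. At HH38 they summed to 8857.8 to 8997.5, with 1 called higher and 6 lower than at HH16, against 12.2% and 7.88% of all probe sets. FGF8 was below background there. At HH34, 1 was called higher and 3 lower than at HH16, against 9.74% and 4.74% of all probe sets. Neural crest markers summed to 9908.6 to 11535 at HH38 and 5040.4 to 5090.0 at HH16, with 2 of 10 called higher, against 12.2% of all probe sets, and none lower. Over HH16, HH34 also had 2 of these 10 called higher, against 9.74% of all probe sets, and none lower. At HH19, where HAND1 fell, no marker of these 3 lists was called, but only 0.446% of all probe sets were called higher and 0.426% lower. Their part in the HAND courses was not tested.

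For MEF2C, the 16 measured skeletal muscle genes summed to 95648 to 97523 at HH38, 45937 to 47384 at HH34, 4550.2 to 5063.4 at HH16 and 990.26 to 1098.5 at HH1. At HH38, 12 of 16 were called higher than at HH16 and 1, PAX3, lower, against 12.2% and 7.88% of all probe sets. The median log2 change of the list was 3.73. MYOD1, the muscle determination factor, was 17.4-fold higher and MYOG 10.1-fold. At HH34 over HH16, 12 of 16 were called higher and none lower, against 9.74% and 4.74% of all probe sets. At HH1, 9 of the 16 were below background on both arrays, MYOG and MYF5 among them. The 10 measured smooth muscle and vessel genes were all called higher at HH16 than at HH1, as were 15% of all probe sets. At HH38 over HH16, 2 of the 10 were called higher and 1 lower, against 12.2% and 7.88% of all probe sets. The counts at HH34 over HH16 were also 2 and 1, against 9.74% and 4.74% of all probe sets. The part of skeletal muscle in the late rise of MEF2C was not tested.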

How the data were processed

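Whole-embryo RNA of 15 stages, 2 pools each, was measured on 30 arrays. The deposited intensity values are linear MAS5 signals, per the submitters' processing notes, and the sources used here do not give the software version. Trimmed by 2% at each end, the mean was 500 on every array. The values were converted to log2 without further scaling. Gene symbols came from the platform annotation, and the RefSeq gene table gave the same symbol for 7 of 7 members. Probe sets were kept if 2 or more arrays had them at or above the 40th percentile of that array, 29600 of 37693, with all 10 probe sets of the members among them. Stages were compared with limma 3.58.1 in R 4.3.3 (15 stage means, eBayes with variance trend, 15 residual degrees of freedom), and the code was tested on simulated data. Folds with an array below background on the dim side are bounds, with the higher of background and signal on each dim array. The members, the 10 gene lists and the tests were chosen with earlier results of these data known. Some genes belong to more than 1 list, such as TBX5, PRRX1, CER1 and ACTA2, so the counts of different lists are not independent. Genes named from a list stand beside its count and were not always those with the largest called changes. The likeness measure was Pearson's r of stage means. Alternatives were 2 other scalings, no filter, no variance trend, array weights, a replicate block, a floor at background, averaging all probe sets of a gene and leaving out each array. Replicate numbers did not pair the pools: over 105 pairs of stages the correlation of their deviations lay between -0.031 and 0.044. Whether the pools come from separate egg sets is not given, and p-values measure the spread between pools. Figures were drawn with matplotlib 3.10.9.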

Additional observations from a re-analysis of the deposited data

How the results depend on the processing

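Of 19 changes of single genes, 14 kept their direction and their side of the threshold under all 38 alternatives (8 settings and 30 fits without 1 array). The number of members called lower at HH16 than at HH1 was 2, and it was 1 with no filter, with no variance trend, with array weights and with the replicate block, and 1 to 2 over the fits without 1 array, because the call of GATA4 was lost (limma adjusted p = 0.0614, 0.0699, 0.107 and 0.0547 in those 4 settings). The replicate block changed no other call of the single changes. The change of GATA4 at HH38 from HH16, -0.62 and not called, reversed to 0.14 with the floor at background and to 0.18 without HH38 replicate 2, and over the fits without 1 array it ran between -1.43 and 0.18. The cause was not tested. The floor lowered the log2 changes of genes with a stage below background, as its construction sets a minimum, to 1.82 for HAND1 and 1.08 for NKX2-5 at HH4 over HH2. With 75th percentile scaling the median log2 change of all probe sets was -0.12 for both main comparisons, and with quantile normalization it was -0.05 for HH16 and -0.15 for HH38, while no called direction of a member turned. The calls at the 14 steps numbered 4 to 6 over the alternatives, against 5, and those against HH1 62 to 74, against 73. Low signals limit GATA4, HAND1 and NKX2-5, which were above background on 18, 15 and 24 of 30 arrays.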

Other observations

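At HH9 the 2 pools differed in several cardiac muscle and regulator genes. Among the genes named here, the largest differences were all higher in replicate 2, and the smaller ones went in both directions. Replicate 2 had 1233 for MYH15, 3391 for ACTC1, 1259.8 for MYL2 and 749 for ISL1, and replicate 1 had 423, 1104, 463 and 241. NKX2-5 had 428 in replicate 2 and 249.5 in replicate 1, while GATA5 had 7026 and 6889 and HAND2 1274 and 982. HAND1 had 170.2 in replicate 2 and 220.4 in replicate 1, GATA6 1483 and 1843, and GATA4 49.9 and 68.3. At HH11 the pools read 4596 and 4205 for MYH15 and 433 and 454 for NKX2-5.

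At HH16 the pools differed in APOB, an apolipoprotein of yolk sac and liver, with 2389 in replicate 2 and 165 in replicate 1, while HNF4A had 36.7 and 69.8. GATA5 had 5599 in replicate 2 and 5054 in replicate 1, and GATA6 had 620.3 and 459.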
